A study of Mus musculus with 12 samples.

Results

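The genes described here are the enzymes that attach amino acids to cytosolic tRNAs and the genes that bring amino acids into the cell or make them and the 1-carbon units drawn from them. They were chosen by name, with earlier results of these data known. The 35 genes were 20 cytosolic tRNA synthetases, 10 amino acid transporters and 5 enzymes of folate-linked serine and glycine metabolism and of proline synthesis. A gene was measured where a probe carrying its name gave a detection p-value under 0.05 on at least 3 of the 12 arrays, and its brightest such probe over the 4 groups was read. Of the 35 genes, 32 were named on the array and all 32 were measured, out of 10259 measured genes and 45281 probes in the series. They were 19 synthetases, 9 transporters and 4 enzymes. Dars, Slc7a5 and Pycr1 carried no named probe and were not analysed here.

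RNA came from progenitor B cells of C57BL/6 embryonic fetal liver and was read on single-colour Illumina bead arrays, 3 for each of 4 groups. In the loss experiment, Sox4fl/fl cells, whose Sox4 gene is flanked by loxP sites, were set against Sox4fl/fl SE-Cre cells, which also carry the SE-Cre recombinase. In the gain experiment, cells of the Sox4fl/fl SE-Cre genotype had been immortalized by p190 Bcr-Abl, a leukaemia-derived kinase fusion, and were labelled either HA or HA-Sox4. All 4 groups therefore carry the floxed Sox4 alleles, and the HA controls carry SE-Cre and p190 Bcr-Abl as the HA-Sox4 cells do. The SE-Cre recombinase was not paired with an unfloxed Sox4 gene in any group, so on loss the recombinase and the absence of Sox4 cannot be told apart. The labels name 3 replicates a group and do not say whether these were separate animals, cultures or clones, so the p-values cover the spread between these samples alone, and part of it may be technical. In bulk RNA, fewer cells of a type and less RNA per cell cannot be told apart.

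A tRNA synthetase joins one amino acid to the tRNAs that read its codons, and several of the cytosolic synthetases sit together in a multisynthetase complex. Transporters of the solute carrier families carry amino acids across the plasma membrane, while mitochondrial serine and glycine enzymes pass 1-carbon units to folate for nucleotide synthesis. When amino acids run short or other stresses phosphorylate eIF2, the transcription factor ATF4 is made and induces many of these genes, through a composite C/EBP-ATF response element known as CARE. Sox4, a transcription factor of the SoxC group, is needed for the early steps of B cell development.

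Promoter stretches of 6 of the genes are shown first, because they hold the letters that ATF4, Sox proteins or E-box factors are known to read. These are the 6 genes with the smallest p over both experiments among those that hold a searched motif in the RefSeq window from 250 bases before to 50 bases after the transcript start (build GRCm38.p6). The motifs were TGATGNAA, the CARE core, its stricter form TGATGCAA, which is contained in the first, AACAAAG for Sox proteins and CACGTG for E-box factors, each on both strands. Capitals mark the motif named on the line, the sequence runs 5′ to 3′ on the gene's strand, and a stretch that reaches past the transcript start is cut to 30 bases.
Slc6a9, chr4:117855448-117855534, plus strand, AACAAAG on the opposite strand: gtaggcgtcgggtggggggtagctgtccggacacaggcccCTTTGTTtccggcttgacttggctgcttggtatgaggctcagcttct
Slc1a4, chr11:20332699-20332728, minus strand, TGATGCAA on the opposite strand: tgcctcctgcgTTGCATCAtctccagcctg
Iars, chr13:49682126-49682155, plus strand, TGATGCAA on the opposite strand: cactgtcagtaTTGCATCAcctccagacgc
Aars, chr8:111033690-111033777, plus strand, TGATGCAA on the opposite strand: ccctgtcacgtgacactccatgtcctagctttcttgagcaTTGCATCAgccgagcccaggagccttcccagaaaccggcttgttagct
Gars, chr6:55037931-55038000, plus strand, TGATGNAA on the opposite strand: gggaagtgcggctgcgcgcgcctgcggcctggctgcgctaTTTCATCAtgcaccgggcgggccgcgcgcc
Aldh18a1, chr19:40588477-40588562, minus strand, CACGTG: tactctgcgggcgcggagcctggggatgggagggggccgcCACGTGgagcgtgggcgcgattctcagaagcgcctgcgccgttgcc
Slc6a9 has 3 windows, and the Sox motif lies in 1 of them, starting 59 bases before that transcript start. The Aars motif starts 112 bases before its transcript start and the Gars motif 30 bases before its own. The Aars stretch also holds CACGTG, in lower case. In Slc1a4 the motif overlaps the transcript start region and in Iars it lies just inside the transcript.

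A window was at hand for 22 of the 32 measured genes. TGATGCAA occurred in the windows of 6 of these 22 genes (27.3%). The share was 0.767% of the 8344 measured genes with a window and 1.03% of all 27025 genes with a window. The 6 were Aars, Iars, Tars, Yars, Slc7a11 and Slc1a4. With the looser TGATGNAA, Gars joined them to give 7 of 22 genes (31.8%), against 2.80% of measured genes and 4.51% of all genes. AACAAAG occurred in 3 genes, Qars, Slc7a11 and Slc6a9 (13.6%), against 4.73% of measured genes and 6.68% of all genes. CACGTG occurred in 5 genes (22.7%), against 11.9% of measured genes and 8.09% of all genes. A match describes these letters only, and no binding was measured. Of the 6 genes with TGATGCAA, Tars and Slc7a11 did not pass the test in either experiment.

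Median probe intensity ran from 83.4 to 90.2 on the loss arrays and from 114.5 to 139.2 on the gain arrays, between 36.1% and 40% of probes were detected on an array, and arrays of one group correlated at 0.988 to 0.994. The Sox4 probe read 10.61 ± 0.056 (log2 intensity, mean ± SD, n = 3) in Sox4fl/fl and 4.50 ± 0.21 in SE-Cre, where 1 of 3 arrays detected it. It read 4.68 ± 0.28 in HA, detected on no array, and 5.47 ± 0.43 in HA-Sox4, detected on all 3. The other, dimmer Sox4 probe was detected on 2 Sox4fl/fl arrays and on none of the other groups, and read 4.75 ± 0.38, 4.24 ± 0.091, 4.80 ± 0.24 and 4.73 ± 0.041 in the 4 groups in the same order, with no rise on gain. The sources used here do not place these probes relative to the floxed and the transferred sequence. Of 14 progenitor B cell markers, 12 were on the array, and 11, 10, 10 and 12 of them were detected on every array of Sox4fl/fl, SE-Cre, HA and HA-Sox4 cells. At a limma adjusted p under 0.05, 4 of the 12 were lower and 2 higher on loss (all genes 7.43% and 6.04%). On gain 4 were higher and 2 lower (all genes 19% and 19.8%). Log2 differences ran from -3.47 (Rag1) to 0.89 (Pax5) on loss and from -0.56 (Cd93) to 4.23 (Rag1) on gain. Kit was at 0.48 and 2.30. The bearing of these shifts on the results below was not tested.

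Summed signal of some marker lists of other cell types differed between groups, and the genes of a list did not move alike. The sums include undetected probes. As the experiments were normalized apart, sums can be compared within an experiment only. Over 8 myeloid markers the summed normalized intensity was 190.2 to 208.3 in Sox4fl/fl and 262.9 to 342.5 in SE-Cre, and 591.4 to 658.8 in HA and 231.0 to 282.7 in HA-Sox4, with Elane, Itgam, Cd14 and Ctsg undetected on all 12 arrays. Over 7 erythroid markers it was 141.8 to 165.3, 139.8 to 177.8, 271.8 to 287.2 and 790.8 to 1084 in the same order, with Alas2, Hba-a1 and Car1 undetected throughout. The 7 T and NK cell markers summed to 212.9 to 221.7, 144.7 to 157.8, 192.6 to 210.5 and 363.4 to 405.5, and Cd3e, Cd3d and Cd3g were undetected throughout. The 5 mast cell and megakaryocyte markers summed to at most 103.1 in the loss experiment. In the gain experiment they summed to 204.1 to 265.0 in HA and to 111.0 to 117.1 in HA-Sox4. Pf4 and Ppbp were undetected throughout, and 4 of the 5 were detected on no HA array. Mcpt8 had a log2 difference of -2.64 on gain. Hepatocyte markers were at background, with 5 of 6 (Alb, Afp, Apoa1, Ttr and Fgb) undetected on every array and sums of 115.0 to 163.8, and the 6 stromal and endothelial markers summed to 121.5 to 171.6, with Col3a1, Cdh5 and Dcn undetected throughout. On loss the log2 difference was 1.5 for the myeloid gene Lyz2, with Fcgr3 at -0.22, and of the T and NK genes Klrd1 was at -1.74, with Nkg7 at 0.10. On gain, as log2 differences, the erythroid gene Hbb-bt was at 2.87, with Klf1 at -0.57 and Epor at -0.40, the T and NK gene Nkg7 was at 2.17, with Klrd1 at 0.012, and Lyz2 was at -2.52. The part of other cells in the results below was not tested.

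SE-Cre cells had lower levels of several amino acid supply genes and of a minority of synthetases. In all, 12 of the 32 genes fell and 0 rose, where 7.43% of all measured genes were lower and 6.04% higher at a limma adjusted p under 0.05. The largest falls were in 3 transporters, Slc7a3, Slc6a9 and Slc1a4. Of the 4 enzymes, 3 fell, and of the 19 synthetases, 6 fell. The median log2 difference over the 32 genes was -0.42, with 26 below 0, and over all measured genes it was 0.018. The groups did not overlap in 15 of the 32 genes, all lower in SE-Cre. Of all 10259 measured genes, 1662 lower and 1618 higher genes did not overlap, so a lack of overlap alone was common. Scaling the arrays to a common median instead of quantile normalization moved the calls over all genes from 762 lower and 620 higher to 817 lower and 383 higher, and left the genes described here at 10 lower and 0 higher. Without Sox4fl/fl replicate 2 the count was 7 lower.

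**Figure D1:**
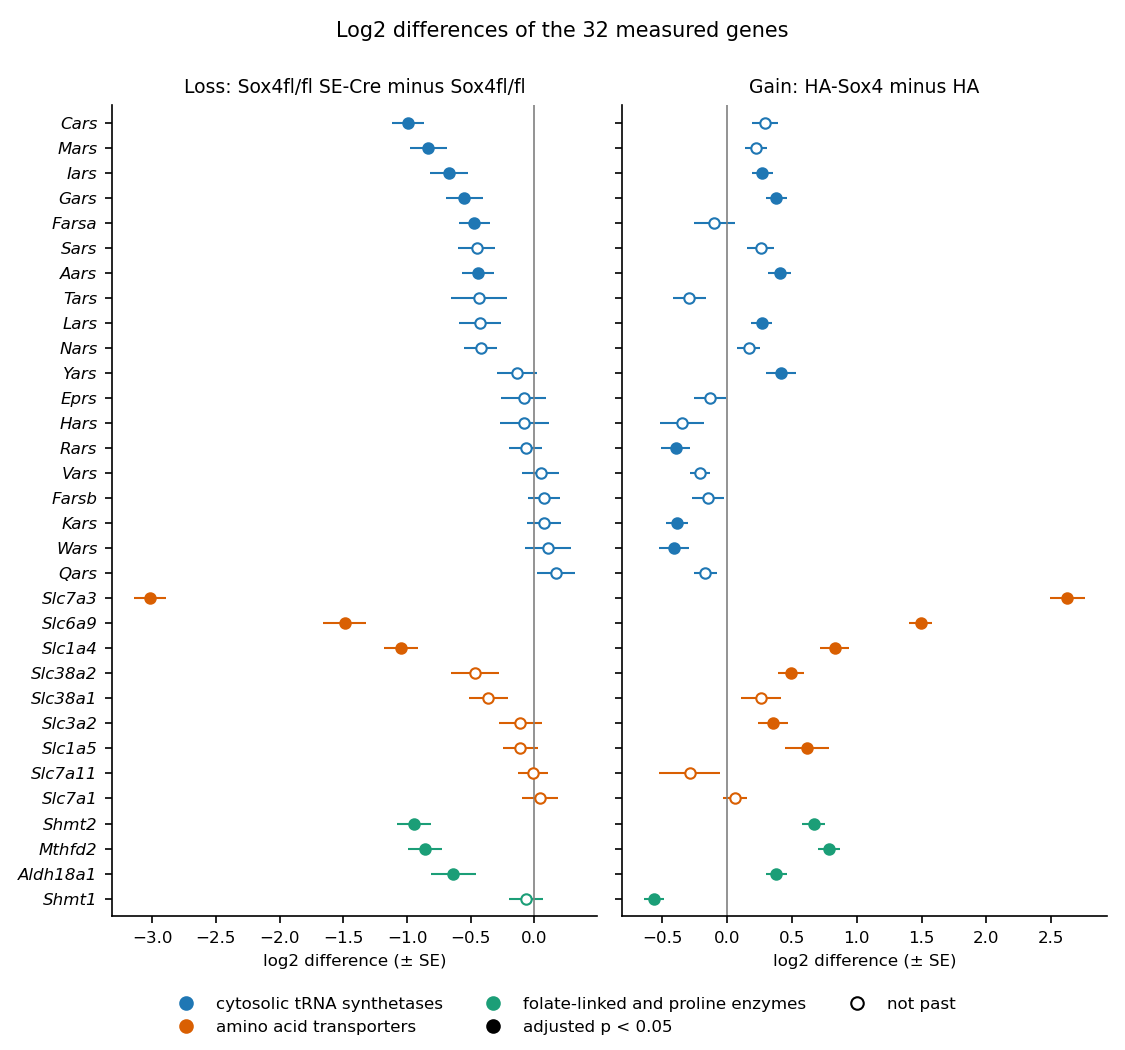
Log2 difference (± SE, 3 arrays a group) of each of the 32 measured genes on loss (left) and on gain (right), coloured by role and filled where the adjusted p was under 0.05. Slc7a3, Slc6a9 and Slc1a4 lie farthest below 0 on loss and farthest above 0 on gain, and the filled points below 0 on gain are the 3 synthetases Rars, Kars and Wars and the enzyme Shmt1.

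Among the transporters, Slc7a3, which carries the cationic amino acids arginine and lysine, read 7.51, 7.58 and 7.57 (log2 intensity) on the 3 Sox4fl/fl arrays and 4.63, 4.58 and 4.39 on the 3 SE-Cre arrays. The SE-Cre arrays lay near background, with 1 of 3 detected, and the groups were far apart. The log2 difference was -3.02 ± 0.13 (SE, adjusted p = 2.24e-07), and its size rests on SE-Cre readings near background. Quantile normalization with no background correction gave -1.51 for this probe, and its other, dimmer probe, detected on 4 of 12 arrays, gave 0.21 (adjusted p = 0.545).

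Slc6a9, the glycine transporter GlyT1 with the Sox motif shown above in 1 of its 3 windows, read 6.09, 6.72 and 6.57 in Sox4fl/fl and 4.98, 5.05 and 4.88 in SE-Cre. All Sox4fl/fl values lay above all SE-Cre values, and Sox4fl/fl replicate 1 was the lowest of its group. The log2 difference was -1.49 ± 0.17, 2.81-fold (adjusted p = 0.000215), and it was -0.66 without background correction.

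Slc1a4, the neutral amino acid exchanger ASCT1, read 7.89, 7.95 and 7.95 in Sox4fl/fl and 6.71, 7.01 and 6.93 in SE-Cre. The groups did not overlap, and the log2 difference was -1.05 ± 0.13, 2.07-fold (adjusted p = 0.000431). The other 6 transporters did not pass, with log2 differences from -0.46 (Slc38a2, the system A carrier SNAT2, adjusted p = 0.154) to 0.043 (Slc7a1, the cationic carrier CAT1). Their groups overlapped in each case. Slc7a11, the cystine carrier xCT, was detected on none of the 6 loss arrays, so its difference of -0.0088 compares background readings.

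Of the enzymes, the 2 of the mitochondrial arm of serine and glycine metabolism fell most. Shmt2, the mitochondrial serine hydroxymethyltransferase, read 9.34, 9.30 and 9.60 in Sox4fl/fl and 8.37, 8.55 and 8.47 in SE-Cre, with a log2 difference of -0.94 ± 0.13, 1.93-fold (adjusted p = 0.00109). Mthfd2, the mitochondrial methylenetetrahydrofolate dehydrogenase that follows it, read 11.42, 11.57 and 11.47 in Sox4fl/fl and 10.45, 10.69 and 10.75 in SE-Cre, a log2 difference of -0.86 ± 0.13, 1.81-fold (adjusted p = 0.00193). For both enzymes the highest SE-Cre array lay below the lowest Sox4fl/fl array by more than the range within either group. Aldh18a1, which starts proline synthesis from glutamate, read 10.02, 10.34 and 9.77 in Sox4fl/fl and 9.19, 9.67 and 9.37 in SE-Cre. Its arrays spread more widely, the groups came close without overlapping, and the log2 difference was -0.64 ± 0.18 (adjusted p = 0.0435). Shmt1, the cytosolic counterpart of Shmt2, read 8.46, 8.79 and 8.60 in Sox4fl/fl and 8.54, 8.63 and 8.48 in SE-Cre. These overlapped, and the log2 difference was -0.066 ± 0.13 (adjusted p = 0.821).

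Of the synthetases, the cysteine enzyme Cars changed most. It read 7.48, 7.56 and 7.53 in Sox4fl/fl and 6.58, 6.63 and 6.39 in SE-Cre, a log2 difference of -0.99 ± 0.13, 1.99-fold (adjusted p = 0.000499). The methionine enzyme Mars, a member of the multisynthetase complex, read 8.62, 8.37 and 8.82 in Sox4fl/fl and 7.77, 7.69 and 7.85 in SE-Cre, with a log2 difference of -0.83 ± 0.14, 1.78-fold (adjusted p = 0.00377). In both genes each SE-Cre array was lower than each Sox4fl/fl array.

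Iars, the isoleucine enzyme, read 10.10, 10.30 and 10.27 in Sox4fl/fl and 9.41, 9.44 and 9.81 in SE-Cre, a log2 difference of -0.67 ± 0.15 (adjusted p = 0.0134). Gars, the glycine enzyme, read 12.76, 12.58 and 12.58 in Sox4fl/fl and 12.22, 12.20 and 11.85 in SE-Cre, a log2 difference of -0.55 ± 0.14 (adjusted p = 0.0323). Aars, the alanine enzyme, read 9.85, 10.02 and 9.96 in Sox4fl/fl and 9.50, 9.44 and 9.57 in SE-Cre, a log2 difference of -0.44 ± 0.12 (adjusted p = 0.0422). None of these 3 genes overlapped between groups, and all 3 windows hold TGATGNAA, as does that of Slc1a4. The windows of Mars, Farsa, Shmt2, Mthfd2, Slc6a9 and Aldh18a1, which also fell, do not hold it. Cars and Slc7a3 had no window. Farsa, the catalytic subunit of the phenylalanine enzyme, was dim, at 4.77, 4.93 and 4.76 in Sox4fl/fl and 4.31, 4.40 and 4.35 in SE-Cre. No SE-Cre array detected it, so its level was at least 1.17-fold lower (log2 difference -0.47, adjusted p = 0.032). Here "at least" sets the undetected group no lower than the lowest signal of a detected probe on the same array.

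The other 13 synthetases did not pass on loss, with log2 differences from -0.45 (Sars, the serine enzyme, adjusted p = 0.0759) to 0.17 (Qars, the glutamine enzyme). Farsb, the partner subunit of Farsa, had a log2 difference of 0.074 (adjusted p = 0.786). Among the 7 measured synthetases of the multisynthetase complex, 2 fell (Mars and Iars) and 5 did not pass, with a median of -0.085. Over all measured genes 7.43% were lower and 6.04% higher on loss. The count of 6 fallen synthetases was 2 or 3 whichever of the 6 arrays was left out, whereas Cars and Mars passed in each of those fits. Aars and Farsa lost their call without any 1 of the 6 arrays, Gars without any but SE-Cre replicate 1, Iars without any but Sox4fl/fl replicate 1 or SE-Cre replicate 3, and Aldh18a1 without any but Sox4fl/fl replicate 3 or SE-Cre replicate 2.

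Immortalized cells labelled HA-Sox4 had higher levels of several transporters and enzymes than HA cells. In all, 14 of the 32 genes were higher than in HA cells and 4 were lower, in a comparison where 19% of all measured genes were higher and 19.8% lower. The 14 were 6 of 9 transporters, 3 of 4 enzymes and 5 of 19 synthetases. Over the alternatives run the counts were 4 to 6 for transporters and 1 to 3 for enzymes. For the synthetases, 5 higher and 3 lower of 19 lie near the shares of all genes. Rars, Kars, Wars and Shmt1 were the 4 that fell. The median log2 difference over the 32 genes was 0.26 and over all measured genes -0.038. The groups did not overlap in 18 of the 32 genes that were higher and 7 that were lower. Of all 10259 measured genes, 2603 higher and 2896 lower genes did not overlap, so a lack of overlap alone was common here too. By role the median log2 difference was 0.49 for transporters, 0.52 for enzymes and -0.097 for synthetases. Scaling to a common median gave 8 higher and 1 lower, a further demand of a 1.5-fold change gave 6 higher and 0 lower, and the lower count was 2 without HA-Sox4 replicate 2 or without HA-Sox4 replicate 3.

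Slc7a3 read 4.94, 4.60 and 4.50 in HA, detected on 0 of 3 arrays, and 7.31, 7.42 and 7.18 in HA-Sox4, detected on 3 of 3. It was at least 4.20-fold higher (log2 difference 2.62 ± 0.14, adjusted p = 1.22e-05). Slc6a9 read 4.91, 4.75 and 4.78 in HA, again undetected, and 6.22, 6.33 and 6.36 in HA-Sox4, at least 2.10-fold higher (log2 difference 1.49 ± 0.089, adjusted p = 2.44e-05). Both transporters were at background in the HA cells and above it in each HA-Sox4 sample. Without background correction their log2 differences were 1.11 and 0.52.

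Slc1a4 read 7.58, 7.61 and 7.53 in HA and 8.19, 8.46 and 8.55 in HA-Sox4, a log2 difference of 0.83 ± 0.11, 1.78-fold (adjusted p = 0.00139). Slc38a2 read 12.65, 12.45 and 12.60 in HA and 13.02, 13.20 and 12.96 in HA-Sox4, with a log2 difference of 0.49 ± 0.10 (adjusted p = 0.00923). The groups of both genes were separate. Slc1a5, the glutamine carrier ASCT2, read 6.04, 5.71 and 6.27 in HA and 6.84, 6.43 and 6.61 in HA-Sox4, a log2 difference of 0.62 ± 0.17 (adjusted p = 0.0264). It did not overlap between groups, but lost its call without HA replicate 1 or 2 or without HA-Sox4 replicate 1 or 3. Slc3a2, the heavy chain that pairs with light-chain amino acid transporters, rose by 0.36 (adjusted p = 0.0458), and only without HA replicate 1 did it keep its call when an array was left out. Slc7a1, Slc38a1 and Slc7a11 did not pass, at 0.061, 0.26 and -0.29. The Slc7a1 probe was detected on none of the 6 gain arrays and the Slc7a11 probe on 3 of them.

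Mthfd2 read 11.36, 11.36 and 11.28 in HA and 12.19, 12.03 and 12.15 in HA-Sox4, a log2 difference of 0.79 ± 0.085, 1.73-fold (adjusted p = 0.000481). Shmt2 read 9.21, 9.36 and 9.39 in HA and 9.96, 10.03 and 9.98 in HA-Sox4, a log2 difference of 0.67 ± 0.088, 1.59-fold (adjusted p = 0.00119). Both mitochondrial enzymes were higher on each HA-Sox4 array. The other Shmt2 probe, which was dimmer, gave -0.16 (adjusted p = 0.532), and the mean of both probes did not pass. Aldh18a1 read 10.79, 10.76 and 10.69 in HA and 11.19, 11.09 and 11.11 in HA-Sox4, a log2 difference of 0.38 ± 0.081 (adjusted p = 0.0102). The cytosolic enzyme Shmt1 went the other way, from 10.60, 10.64 and 10.63 in HA to 10.01, 10.08 and 10.10 in HA-Sox4. Its groups were widely separate for their spread, with a log2 difference of -0.56 ± 0.078, 1.47-fold (adjusted p = 0.00159).

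**Figure D2:**
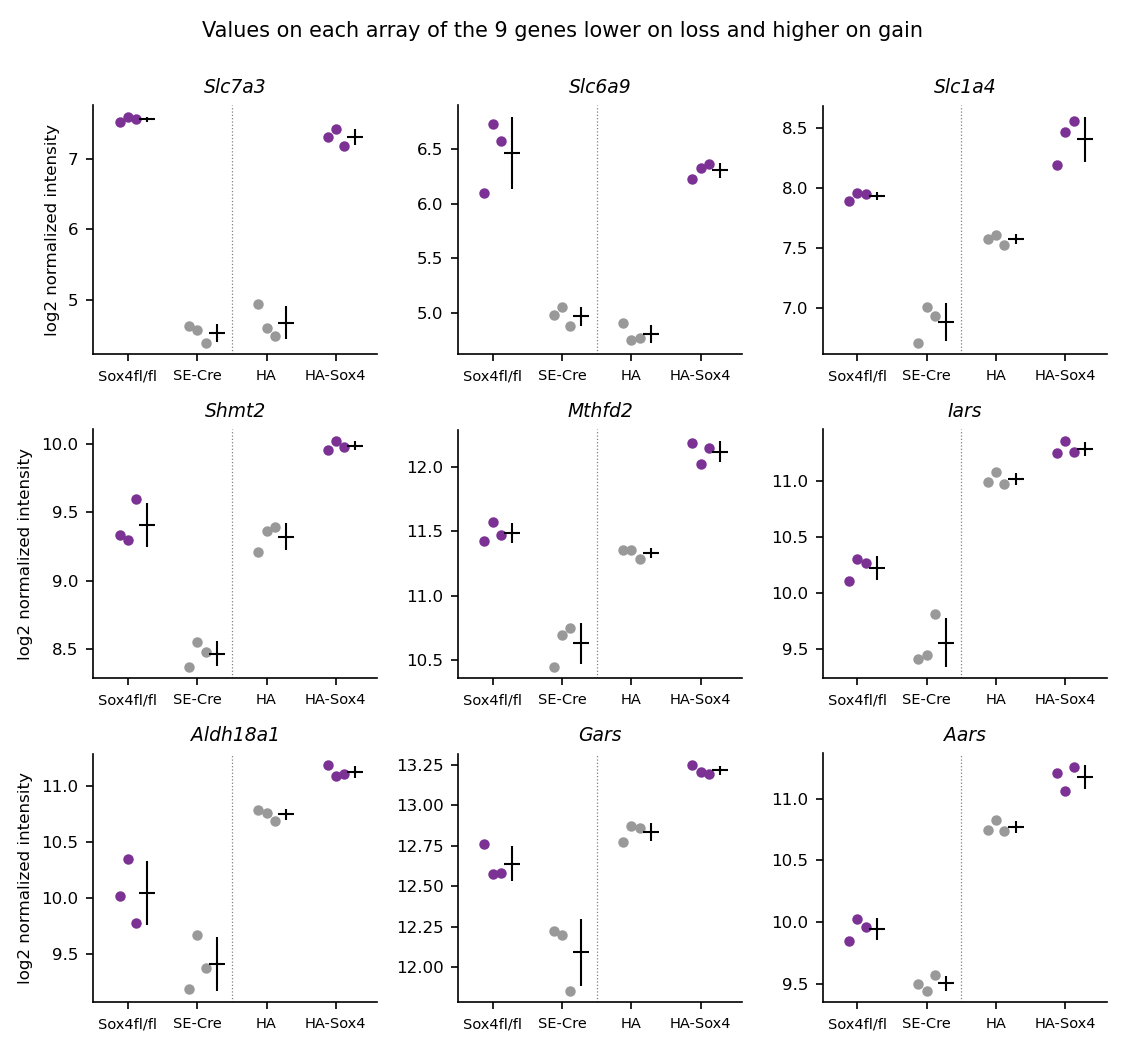
Log2 normalized intensity on each of the 12 arrays (points) with the group mean and SD (cross and bar), for the 9 genes that were lower on loss and higher on gain. In every panel the Sox4fl/fl points lie above the SE-Cre points and the HA-Sox4 points above the HA points, and the dotted line separates the experiments, which were normalized apart. The genes were picked by their calls in both experiments, so the panels are not a further test.

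The 5 synthetases that rose had log2 differences from 0.27 to 0.42. Gars read 12.77, 12.87 and 12.86 in HA and 13.25, 13.20 and 13.19 in HA-Sox4, a log2 difference of 0.38 ± 0.080 (adjusted p = 0.00948). Aars read 10.74, 10.83 and 10.74 in HA and 11.21, 11.07 and 11.25 in HA-Sox4, a log2 difference of 0.41 ± 0.089 (adjusted p = 0.0113). In both genes the lowest HA-Sox4 array lay above the highest HA array. Yars, the tyrosine enzyme, rose by 0.42 (adjusted p = 0.0269), with HA detected on 1 of 3 arrays, and Iars and the leucine enzyme Lars each rose by 0.27 (adjusted p = 0.0386 and 0.0424). Iars and Lars lost their call without any 1 of the 6 arrays, and Yars without HA replicate 3 or without HA-Sox4 replicate 1 or 2.

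The lysine enzyme Kars read 10.44, 10.49 and 10.35 in HA and 10.04, 9.98 and 10.10 in HA-Sox4, a log2 difference of -0.39 ± 0.085 (adjusted p = 0.0111). The arginine enzyme Rars fell by 0.40 on the log2 scale (adjusted p = 0.0317) and the tryptophan enzyme Wars by 0.41 (adjusted p = 0.0312). In none of these 3 did the groups overlap. Leaving out 1 array ended the call of Rars for HA replicates 1 and 2 and for HA-Sox4 replicates 2 and 3, and that of Wars for HA replicates 2 and 3 and for the same HA-Sox4 replicates. The other 11 synthetases did not pass, with log2 differences from -0.35 (Hars, the histidine enzyme, adjusted p = 0.153) to 0.29 (Cars, adjusted p = 0.0604). In the multisynthetase complex 2 of 7 rose (Iars and Lars), 2 fell (Kars and Rars) and 3 did not pass, counts near the 19% higher and 19.8% lower of all genes. The count of risen synthetases was 2 or 3 whichever array was left out.

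Set side by side, 9 of the 32 genes were lower on loss and higher on gain, where 4.32% of all measured genes were. They were the transporters Slc7a3, Slc6a9 and Slc1a4, the enzymes Shmt2, Mthfd2 and Aldh18a1, and the synthetases Iars, Gars and Aars. A further 3, Cars, Mars and Farsa, fell on loss and did not pass on gain. Lars, Yars, Slc3a2, Slc1a5 and Slc38a2 rose on gain and did not pass on loss, and Kars, Rars, Wars and Shmt1 fell on gain and did not pass on loss. None was lower in both experiments, as 0.76% of all genes were, and 11 passed in neither. Among the 18 called on gain, 13 had another kept probe, and of these 17 other probes 15 had the sign of the probe used and 7 also passed. Of the 12 called on loss, 7 had another kept probe, and of these 8 other probes 5 had the same sign and 1 also passed. No other probe passed in the opposite direction. Some of these classes depend on the probe read. The second Lars probe, detected on 12 of 12 arrays, gave -0.64 on loss (adjusted p = 0.0198) and 0.23 on gain (adjusted p = 0.0845). A second Iars probe, also detected on 12 arrays, gave -0.29 on loss (adjusted p = 0.2). The dimmer Slc7a3 probe gave -0.23 on gain (adjusted p = 0.587).

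**Figure D3:**
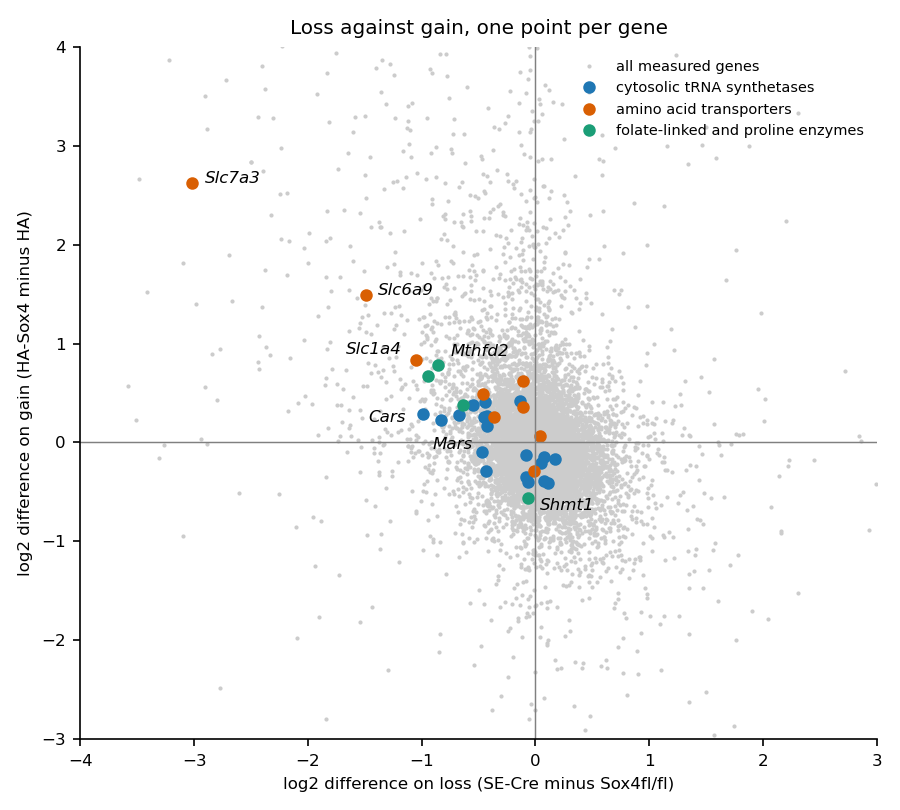
Log2 difference on loss (horizontal) against log2 difference on gain (vertical), 1 point for each gene, with the 32 genes coloured by role and 10197 of 10259 measured genes inside the axes. Slc7a3 lies at -3.02 and 2.62, Slc6a9 at -1.49 and 1.49, and the synthetases run from -0.99 to 0.17 on loss and from -0.41 to 0.42 on gain.

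Whether the 2 experiments differed in size was tested over all 12 arrays, as the HA-Sox4 minus HA difference less the Sox4fl/fl minus SE-Cre difference. Of the 32 genes, 5 passed, each with a value below 0, and 0 passed above 0, where 9.09% of all measured genes passed lower and 10.8% higher. For Cars the differences were 0.98 on loss (Sox4fl/fl over SE-Cre) and 0.29 on gain, apart by -0.69 ± 0.16 (adjusted p = 0.00779). For Mars they were 0.85 and 0.22, apart by -0.63 ± 0.17 (adjusted p = 0.0239). For these 2 synthetases, then, Sox4fl/fl cells exceeded SE-Cre cells by more than HA-Sox4 cells exceeded HA cells. For Farsa the differences were 0.77 and -0.074, apart by -0.84 ± 0.19 (adjusted p = 0.0074), with SE-Cre undetected. For Slc7a3 they were 3.40 and 2.32, apart by -1.08 ± 0.19 (adjusted p = 0.00138), with HA undetected and SE-Cre detected on 1 of 3 arrays, so which change was larger cannot be read for this gene. For Shmt1 they were 0.065 and -0.56, apart by -0.63 ± 0.16 (adjusted p = 0.0133). Scaling to a common median ended the calls of Farsa and Slc7a3, the mean of a gene's probes those of Slc7a3 and Mars, no background correction that of Farsa, and leaving out HA replicate 3 or HA-Sox4 replicate 1 that of Mars. The experiments also differ in immortalization and in array set, which cannot be told apart from this difference.

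Neighbouring genes of the same pathways were read from 5 further lists. Of 17 measured regulators and targets of the integrated stress response, the pathway that makes ATF4, 5 fell on loss and 0 rose (median -0.20), against 7.43% and 6.04% of all genes. On gain 10 rose and 1 fell (median 0.52), against 19% and 19.8%. Chac1, a glutathione-degrading enzyme induced by ATF4, fell by 1.68 on the log2 scale on loss (adjusted p = 8.49e-05) and rose by 2.35 on gain (adjusted p = 3.32e-06). Trib3, a pseudokinase, fell by 0.57 (adjusted p = 0.0253) and rose by 2.29 (adjusted p = 1.75e-05), and Atf5 fell by 0.64 (adjusted p = 0.0174) and rose by 0.92 (adjusted p = 0.000303). Eif4ebp1, an inhibitor of cap-dependent translation, fell by 0.73 on loss (adjusted p = 0.0277), and Ddit3, which encodes CHOP, rose by 1.46 on gain (adjusted p = 0.000587). Atf4 itself had a log2 difference of -0.51 on loss (adjusted p = 0.0519), which did not pass, and rose by 0.42 on gain (adjusted p = 0.00913). The exception on gain was Eif2ak3, the eIF2 kinase PERK, which was at least 1.33-fold lower and undetected in HA-Sox4.

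Of 12 other enzymes of amino acid and folate metabolism, 4 fell and 2 rose on loss, against 7.43% and 6.04% of all genes, and 4 rose and 3 fell on gain, against 19% and 19.8%. The gain counts lie near those shares. Asns, asparagine synthetase, fell by 0.86 on loss (adjusted p = 0.00166) and rose by 0.92 on gain (adjusted p = 0.000211). Gpt2, the mitochondrial alanine transaminase, fell by 1.14 (adjusted p = 0.000299) and was at least 5.14-fold higher on gain (adjusted p = 1.75e-05), where HA was undetected. Cth, which makes cysteine from cystathionine, was at least 1.85-fold lower on loss (adjusted p = 0.000615) and at least 5.39-fold higher on gain (adjusted p = 1.53e-06). These 3 genes were thus lower on loss and higher on gain. Psat1, of serine synthesis, rose by 0.74 on gain (adjusted p = 0.000585) and had -0.37 on loss (adjusted p = 0.0843). Prodh, which breaks proline down, rose by 1.72 on loss (adjusted p = 1.1e-05) and had -0.011 on gain (adjusted p = 0.938).

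The mitochondrial tRNA synthetases, which charge the tRNAs of the mitochondrion, are encoded for the most part by genes other than the cytosolic ones. Those with genes of their own were read as a further list, which held no glycine or lysine enzyme. Of 15 measured, 0 fell and 2 rose on loss, and 0 rose and 7 fell on gain, with medians of -0.030 and -0.30. Over all measured genes 7.43% fell and 6.04% rose on loss, and 19% rose and 19.8% fell on gain. Vars2, the mitochondrial valine enzyme, rose by 0.57 on loss (adjusted p = 0.0156) and fell by 0.79 on gain (adjusted p = 0.0025). Lars2, the leucine enzyme, rose by 0.48 on loss (adjusted p = 0.0361) and fell by 0.44 on gain (adjusted p = 0.0217), and Iars2 fell by 0.44 on gain (adjusted p = 0.00536). Of the 3 non-enzyme scaffolds of the multisynthetase complex none passed on loss, and Aimp2 fell by 0.49 on gain (adjusted p = 0.00456). Among 8 other amino acid transporters 0 fell and 2 rose on loss, Slc38a7 by 1.06 (adjusted p = 0.00242) and Slc7a7 by 0.98 (adjusted p = 0.00408), and on gain 0 rose and Slc7a6 alone fell, by 0.64 (adjusted p = 0.00283).

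**Figure D4:**
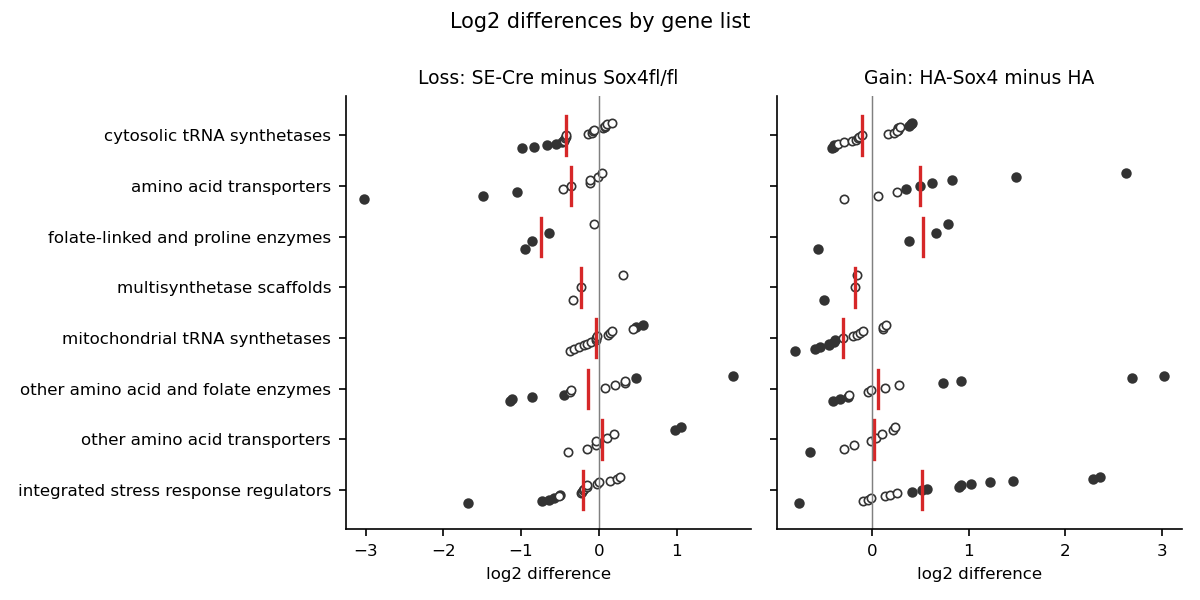
Log2 differences on loss (left) and gain (right) of the measured genes of 8 lists, 1 point a gene, filled where the adjusted p was under 0.05, with a red bar at each list's median. The enzyme list of folate and proline metabolism has medians of -0.75 and 0.52, the mitochondrial synthetases of -0.030 and -0.30, and the stress response regulators of -0.20 and 0.52.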

How the data were processed

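Linear probe intensities were deposited by the authors without normalization, each with its detection p-value, per the file headers. Their processed intensities, deposited in a further table, matched quantile normalization of the 6 arrays of an experiment to within 0.01 for 99.97% (loss) and 99.96% (gain) of values. R 3.0.1 is named, without a role, in the submitters' processing notes. The sources used here do not say how beads were scanned and summarized.

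The arrays of each experiment went through neqc (limma 3.58.1, R 4.3.3), which corrects the background, adds an offset of 16, normalizes by quantiles and takes log2; its negative controls came from the detection p-values. Of 45281 probes, 34885 carried 1 gene symbol, 18 several and 10378 none, from the platform annotation given for this series. The 19663 probes detected at 0.05 on at least 3 of 12 arrays entered lmFit and eBayes, with Benjamini-Hochberg adjustment over all of them and a threshold of 0.05. The residual SD had a median of 0.18 (loss) and 0.15 (gain), and 3 arrays a group limit the precision. The test between experiments used a joint normalization and fit of the 12 arrays. The fits were also run on simulated intensities whose noise was independent between arrays. That run does not speak to replicates that share variation.

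The genes, lists and tests were chosen with earlier results of these data known. All 35 genes are accounted for. Those past the threshold are named, with every array value for up to the 12 of smallest p in an experiment, and up to 4 genes of each pathway list in an experiment by smallest p. Atf4 and a few unchanged genes were named after their values were seen. As alternatives, the authors' processed values were used, the background was left uncorrected, and the following were tried: a common median, other detection filters, a joint fit, eBayes with trend and robust, the replicate number as a block, the mean of a gene's probes, a 1.5-fold limit and each array left out. No slide or scan is given in the files, so neither was fitted as a block.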

Additional observations from a re-analysis of the deposited data

Results flagged for a closer look

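In 5 of the 32 genes the experiments differed by the test over all 12 arrays of the HA-Sox4 minus HA difference less the Sox4fl/fl minus SE-Cre difference. Of all measured genes, 9.09% passed lower and 10.8% higher in this test, so the count is not high for these arrays. The values, on the log2 scale with limma adjusted p, were -0.69 for Cars (adjusted p = 0.00779), -0.84 for Farsa (adjusted p = 0.0074), -0.63 for Mars (adjusted p = 0.0239), -1.08 for Slc7a3 (adjusted p = 0.00138) and -0.63 for Shmt1 (adjusted p = 0.0133). Cars and Shmt1 passed under all 20 alternatives run. Farsa was undetected on the SE-Cre arrays, and Slc7a3 on the HA arrays and on 2 of 3 SE-Cre arrays, so those 2 values rest on background readings. Without background correction they were -0.28 (adjusted p = 0.0638) and -0.83 (adjusted p = 9.54e-06), and with a common median Slc7a3 gave -0.40 (adjusted p = 0.241).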

How the results depend on the processing

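The count of genes lower on loss ran from 9 to 15 over the alternatives with all arrays and from 7 to 9 with 1 array left out, and the count of genes higher on loss was 0 in each, with limma. On gain, the higher count fell from 14 to 8 with a common median, to 8 with all 12 arrays fitted together and to 6 with a 1.5-fold limit. The lower count fell from 4 to 1 with a common median, 2 with no detection filter, 2 with the replicate number as a block and 0 with the 1.5-fold limit, and ran from 2 to 4 with 1 array left out. The difference between experiments was called in 8 genes without background correction and in 3 with a common median, against 5. The replicate number as a block gave 10 lower on loss, 11 higher and 2 lower on gain and 5 differences. Same-numbered arrays showed little shared deviation (correlations from -0.018 to 0.037). On loss, replicate 3 gave 0.037 with its own number and at most -0.018 with another. This check cannot exclude a weak pairing, and the labels do not state one. A stricter fold limit can only lower a count or leave it as it was. Leaving out 1 array did not always lower a count: without Sox4fl/fl replicate 1, 6 differences were called, against 5. The cause of the other changes was not tested.

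Under every alternative run, 7 of the 12 calls on loss passed (Cars, Mars, Mthfd2, Shmt2, Slc1a4, Slc6a9 and Slc7a3), as did 4 of 18 on gain (Mthfd2, Slc1a4, Slc6a9 and Slc7a3) and 2 of 5 differences (Cars and Shmt1). No called value changed sign. Values that passed neither way changed sign in 19 of 319 cases on loss and 4 of 220 on gain. With the mean of a gene's probes these were 0.015 for Eprs, -0.019 for Kars and 0.20 for Slc1a5 on loss, and -0.033 for Slc38a1 and 0.058 for Tars on gain. With a common median, Slc7a1 gave -0.017 on loss and Farsa 0.012 on gain. With 1 array left out, the log2 difference on loss ran from -0.20 to 0.078 for Eprs, -0.24 to 0.11 for Hars, -0.11 to 0.0095 for Rars, -0.15 to 0.022 for Shmt1, -0.24 to 0.026 for Slc3a2, -0.037 to 0.14 for Slc7a1, -0.028 to 0.017 for Slc7a11, -0.051 to 0.14 for Vars, -0.031 to 0.29 for Wars and -0.24 to 0.024 for Yars. On gain it ran from -0.27 to 0.027 for Farsa. Dim probes, such as those of Farsa, Yars and Slc7a1, are limited by signal over background.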

Other observations

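HA cells and SE-Cre cells share the floxed Sox4 gene and SE-Cre, and differ in immortalization, the HA label and the experiment, which cannot be told apart. On the joint scale the median of HA minus SE-Cre over the 32 genes was -0.13, with 15 of 32 higher in HA, and over all measured genes it was -0.067. The threonine enzyme Tars stood highest at 2.16, then Slc3a2 at 1.75, and Slc1a5 stood lowest at -1.08. These 3 were chosen after their values were seen.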
